A study of Mus musculus with 4 samples.

Results

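The cells described here are fibroblast-type cells, the matrix-making cells of the lung wall, that were present in a sort for another cell type. They were 73 of the 10077 cells in the single-cell data. A cell was taken when it had at least 5 unique molecular identifiers (UMIs, each 1 counted transcript molecule) of Col1a1, Col1a2, Col3a1 and Dcn together, 0 of Ptprc and Pecam1, at most 1 of Msln and Upk3b together, and under 6% of its UMIs from Sftpc. The cells were thus chosen by measured counts of these genes. The sort was made for GFP+ alveolar type II (AT2) cells, which make surfactant, in a study of the small GTPase Cdc42 in lung regrowth after pneumonectomy (PNX, removal of part of the lung).

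The mice fell into 4 groups with 1 library each. Null PNX was Cdc42 AT2 null mice on day 21 after PNX, null sham was the same genotype after sham treatment, control PNX was control mice on day 21 after PNX, and control sham was control mice after sham treatment. Null mice carried Sftpc-CreER, 1 floxed and 1 null Cdc42 allele and Rosa26-mTmG, whereas in controls the second Cdc42 allele was normal, beside the same floxed allele, Cre driver and reporter. All had 4 doses of tamoxifen, and the labels give postnatal day 80 for all 4 groups. Sftpc-CreER is driven by an AT2 promoter, so recombination is aimed at AT2 cells and not at fibroblasts, whereas the null allele is carried by every cell of the null mice. The number of mice behind a library is not stated in the labels.

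The 4 libraries held 2370 null PNX, 3344 null sham, 2252 control PNX and 2111 control sham cells. Fibroblasts were 13 cells of null PNX (0.549%, exact Clopper-Pearson 95% interval 0.292–0.936), 47 of null sham (1.41%, 1.03–1.86), 5 of control PNX (0.222%, 0.0721–0.517) and 8 of control sham (0.379%, 0.164–0.745). Their median depth was 7495 UMIs in null PNX, 4651 in null sham, 5631 in control PNX and 4009.5 in control sham. Summed over the cells this came to 132800, 266493, 29880 and 35222 UMIs in the same order. The sort and its gate set these shares, so they are not shares of lung cells. Only null sham had the 15 cells asked for in a comparison between libraries. For the other libraries values are therefore given side by side, with no ratio between libraries and, as each group was a single library, no test. Intervals below cover counting error only. Between libraries 54 cell barcodes were shared, and 2 of the 73 fibroblasts carried one of them.

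Lung fibroblasts build the collagen and elastin scaffold of the alveolar wall and signal to its epithelium and vessels. Alveolar fibroblasts, which lie beside AT2 cells and depend on the transcription factor Tcf21, supply growth factors such as Fgf7, Fgf10 and Wnt2. Adventitial fibroblasts line the cuffs of larger vessels and airways, and contractile myofibroblasts and smooth muscle hold the alveolar ducts, airways and vessels.

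Against the label, the cells bore fibroblast genes beyond the 4 of the rule, but the null PNX cells differed from those of the other libraries, as described below. Of the 20 general fibroblast markers, which include those 4, 18 were measured and 17 were at least 4-fold higher in the fibroblasts than in all other cells. A gene was measured when both sets of cells together had at least 20 UMIs of it, and levels are CPM, UMIs summed over cells and scaled to a common total. Over all genes, 1456 of 14424 measured genes, or 10.1%, were at least 4-fold higher in the fibroblasts and 264, or 1.83%, at least 4-fold lower, with a median log2 ratio of 0.10. The rule chose the cells by this same contrast, so these counts describe the cells and are not tested.

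The genes of the rule themselves were not equally spread. Col1a1, a chain of type I collagen, was seen in 72 of the 73 cells, with 655 CPM in null PNX, 934 in null sham, 1639.9 in control PNX and 709.8 in control sham. Col1a2, the other chain, was seen in 67 cells, with 579.8 CPM in null PNX, 1175 in null sham, 2309 in control PNX and 880.1 in control sham. Col3a1, type III collagen, was seen in 68 cells, with 1717 CPM in null PNX, 1373 in null sham, 3380.2 in control PNX and 994 in control sham. Dcn, the collagen-binding proteoglycan decorin, was seen in only 21 cells, with 2831 CPM in null PNX, 781 in null sham, 134 in control PNX and 0 in control sham, and 1 null PNX cell held 42.7% of all its UMIs. The rule asks for UMIs of these genes, so their presence is no finding. In null PNX, Col1a2 was in 8 and Col3a1 in 10 of 13 cells, and no control sham cell had Dcn. At the limit of the rule, 7 cells that met its other terms had exactly 4 UMIs of the 4 genes. Of those, 0 had Inmt, 0 had Pdgfra and 5 had Epcam, an epithelial gene. Another 7 cells had exactly 5 UMIs and were taken, and of these 6 had Inmt, 6 had Pdgfra and 2 had Epcam.

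**Figure D1:**
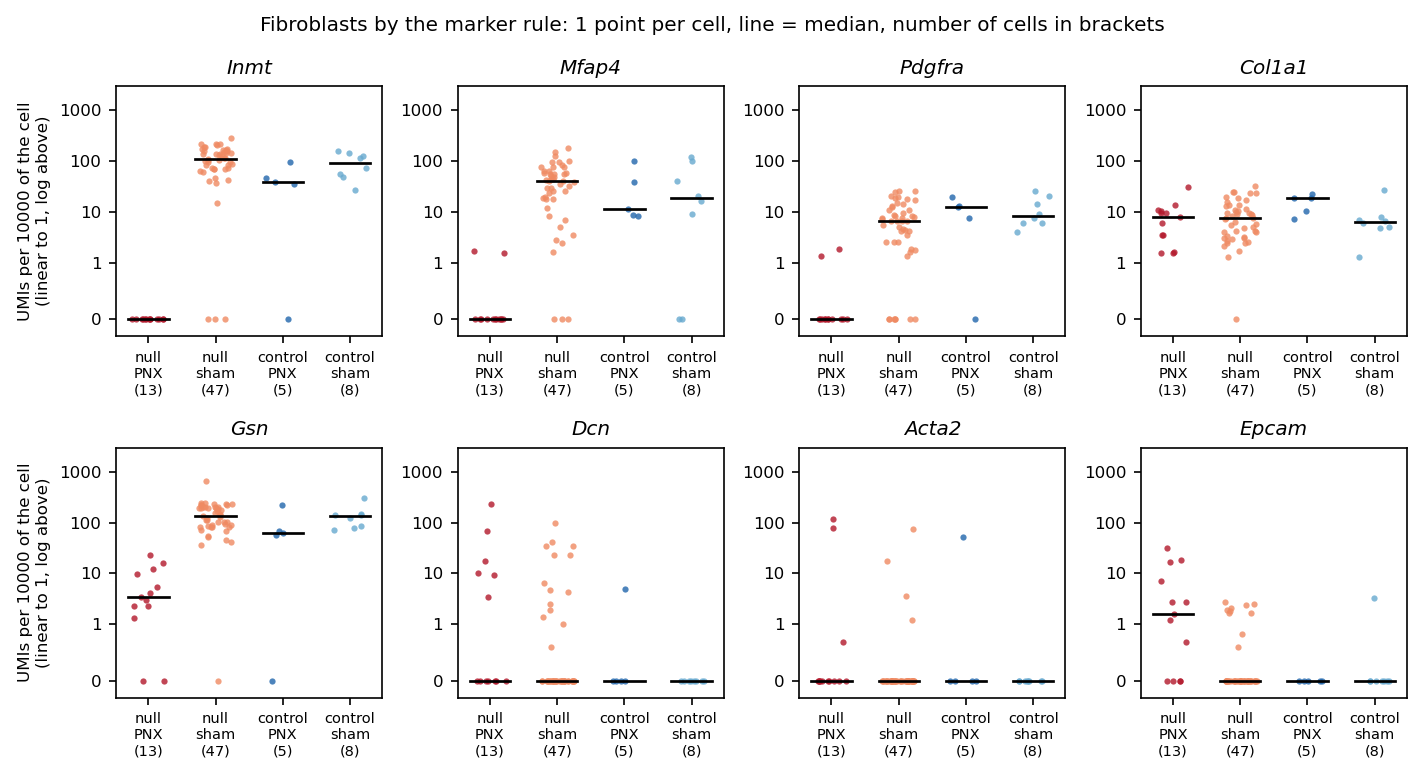
UMIs per 10000 of the cell's UMIs for 8 genes in each fibroblast, by library; the vertical axis is linear up to 1 and logarithmic above, a point is 1 cell and a line is the median. Inmt, Mfap4 and Gsn are high in most null sham, control PNX and control sham cells, Inmt is 0 in all 13 null PNX cells, and Epcam is above 5 in null PNX cells only.

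The leading genes were the 25 with the largest ratio to all other cells among genes with at least 100 UMIs in the fibroblasts, a UMI in at least 20% of them and no cell with over 50% of the UMIs. Among them were Dpep1, Mfap4, Pdgfra, Lox, Spon1, Pcolce2, Sod3, Inmt, Tcf21, Dpt, Cxcl14, Itga8, Gpx3, Prelp, Crispld2, Wisp2, Ogn, Olfml3, Serpina3n, Sparcl1, Fxyd1, Figf, Mgp and Cdo1. Inmt, an enzyme that methylates indole amines and is a marker of alveolar fibroblasts in the mouse, had 7609.9 CPM (7361–7865) in the fibroblasts against 11.7 in all other cells, a ratio of 648 (599–702). Mfap4, a microfibril protein of elastic fibres, had 2799 CPM (2649–2956) in the fibroblasts against 3.25 in all other cells. Pdgfra, the receptor for PDGF-A made by the alveolar epithelium, had 566 CPM (499.9–639) in the fibroblasts against 0.663 in all other cells, a ratio of 854 (615–1213). Leukocytes, which do not make these transcripts, had 11.4 CPM of Inmt, 2.79 of Mfap4 and 0.232 of Pdgfra. The matrix crosslinker Lox had 228 CPM in the fibroblasts against 0.284 in all other cells, and Mgp, an inhibitor of calcification, had 14423 CPM in the fibroblasts against 64.0 in all other cells. Sod3, the extracellular superoxide dismutase, had 1845 CPM in the fibroblasts against 2.81 in all other cells, and Gpx3, the secreted glutathione peroxidase, had 4968 CPM in the fibroblasts against 10.7 in all other cells.

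**Figure D2:**
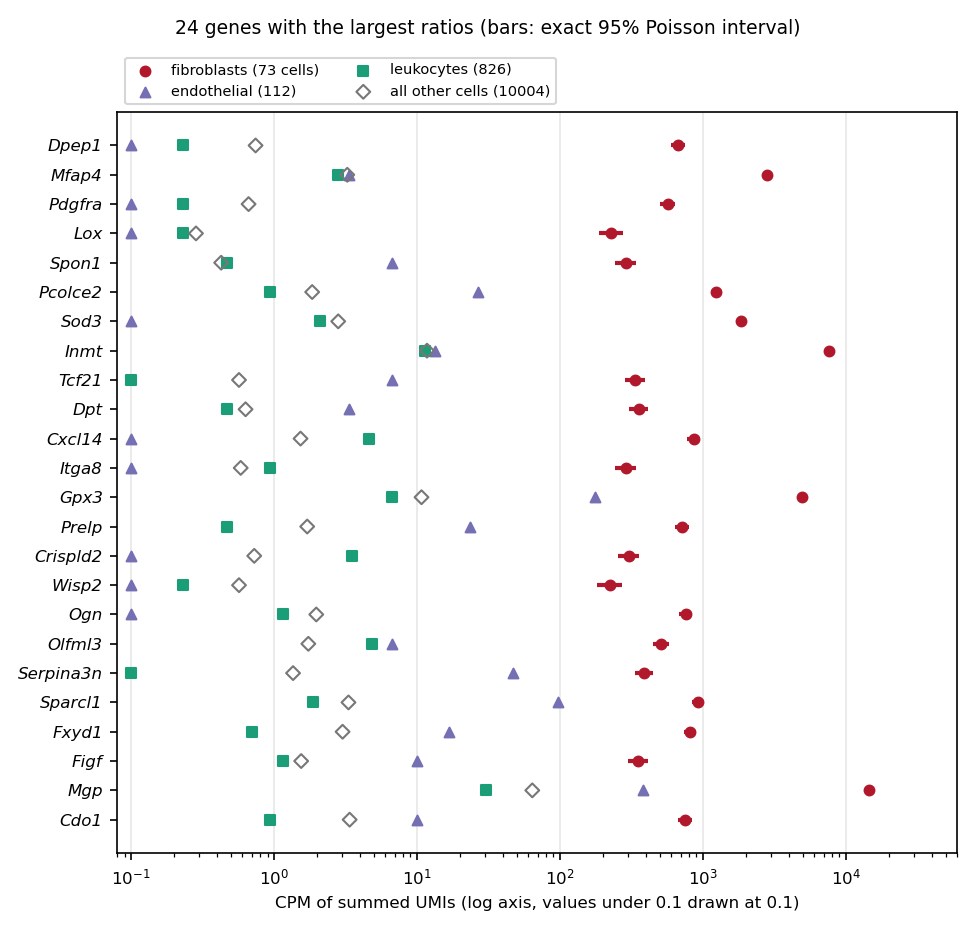
CPM of summed UMIs, on a log axis, of 24 of the 25 leading genes in fibroblasts, endothelial cells, leukocytes and all other cells, with exact 95% Poisson intervals for the fibroblasts. Fibroblast levels run from 224 CPM for Wisp2 to 14423 for Mgp, each well to the right of the other cells; these genes were chosen for this ratio.

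Library by library these genes shared a pattern. Inmt had 0 CPM in null PNX, 11309.9 in null sham, 4719 in control PNX and 10760.3 in control sham. Mfap4 had 15.1 CPM in null PNX, 4184 in null sham, 2376 in control PNX and 3179.8 in control sham, and Pdgfra had 30.1 CPM in null PNX, 705 in null sham, 1205 in control PNX and 994 in control sham. The last 3 libraries lay within a few-fold of each other for these genes and null PNX was far below them. Tcf21, the transcription factor of the alveolar fibroblast lineage, had 0 CPM in null PNX, 402 in null sham, 368 in control PNX and 1079 in control sham. Dpep1, a membrane dipeptidase, had 0 CPM in null PNX, 991 in null sham, 268 in control PNX and 1107 in control sham, and Pcolce2, an enhancer of procollagen processing, had 0 CPM in null PNX, 1554 in null sham, 1339 in control PNX and 3521 in control sham. Tcf21, Dpep1 and Pcolce2 were at 0 in the null PNX fibroblasts, where 3 counts would be 22.6 CPM. Gpx3 had 166 CPM in null PNX, 6762 in null sham, 2979 in control PNX and 11186 in control sham. Genes shared with other matrix-making cells were present in null PNX, with Sparc at 2605 CPM in null PNX, 2248 in null sham, 3916 in control PNX and 1505 in control sham, and Igfbp7, an insulin-like growth factor binding protein, at 2568 CPM in null PNX, 3403 in null sham, 3279.8 in control PNX and 2726 in control sham.

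Inmt divided the cells without any intermediate. It was at 7 UMIs or more in 56 of the 73 fibroblasts and at 0 in 17, with no cell between. All 8 control sham cells had it, as did 4 of 5 control PNX cells and 44 of 47 null sham cells (93.6%, exact interval 82.5–98.7). In null PNX it was in 0 of 13 cells, where the exact interval reaches 24.7% of cells with a UMI and the limit of 3 counts, 3 of 13, is 23.1%. Per 10000 UMIs of a cell it ran from 0 to 288 with a median of 109 in null sham, from 0 to 97.4 with a median of 38.4 in control PNX and from 27.5 to 159 with a median of 92.8 in control sham. Outside the fibroblasts, Inmt was found at 1 to 4 UMIs in 318 of 3297 null sham cells (9.65%), 23 of 2247 control PNX cells (1.02%) and 64 of 2103 control sham cells (3.04%). The null PNX library had no Inmt UMI in any of its 2370 cells. Its whole-library level was 0 CPM, where 3 counts would be 0.120, beside 193 CPM in null sham, 16.6 in control PNX and 66.5 in control sham. A further 12 cells had 5 or more Inmt UMIs and were not taken, 6 in null sham, 1 in control PNX and 5 in control sham, and 10 of them had under 5 UMIs of the 4 rule genes. The rule thus missed Inmt-bearing cells in 3 libraries and none in null PNX.

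The promoters of 3 genes that separate the cells are shown with the E-box CANNTG and the TATA motif TATAAA in capitals: Inmt, present in 56 cells, Tcf21, seen in 42 of these 56 and in no other fibroblast, and Acta2, the smooth muscle actin of the contractile cells. They are RefSeq sequences of build GRCm38.p6, 250 bases before to 50 after the start, each read 5′ to 3′ on the minus strand, and all 3 genes were found in the table.
Inmt, chr6:55174941-55175240: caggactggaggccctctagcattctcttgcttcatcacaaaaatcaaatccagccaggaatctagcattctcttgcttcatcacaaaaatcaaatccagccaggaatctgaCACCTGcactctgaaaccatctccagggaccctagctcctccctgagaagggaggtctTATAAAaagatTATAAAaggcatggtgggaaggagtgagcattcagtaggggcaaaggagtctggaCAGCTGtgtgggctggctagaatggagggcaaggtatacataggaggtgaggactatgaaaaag
Tcf21, chr10:22820094-22820393: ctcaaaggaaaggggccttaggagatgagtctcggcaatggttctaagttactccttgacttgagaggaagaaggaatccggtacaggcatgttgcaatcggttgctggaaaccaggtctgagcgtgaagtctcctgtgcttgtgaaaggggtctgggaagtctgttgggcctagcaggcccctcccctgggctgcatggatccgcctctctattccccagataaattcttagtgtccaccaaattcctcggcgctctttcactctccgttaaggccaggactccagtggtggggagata
Acta2, chr19:34255324-34255623: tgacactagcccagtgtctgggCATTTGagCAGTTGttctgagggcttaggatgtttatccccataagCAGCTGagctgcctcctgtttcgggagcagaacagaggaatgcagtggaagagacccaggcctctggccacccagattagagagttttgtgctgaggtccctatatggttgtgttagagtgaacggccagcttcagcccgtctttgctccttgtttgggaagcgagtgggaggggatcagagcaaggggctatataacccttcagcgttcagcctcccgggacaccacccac
Both motifs were sought on both strands. Tcf21 protein is a basic helix-loop-helix factor, a family that binds E-boxes. The Inmt window held 2 E-boxes and 2 TATA matches, which did not overlap, the Tcf21 window 0 of each, and the Acta2 window 3 E-boxes and 0 TATA matches. Of 32851 RefSeq windows of the same length 72.3% held the E-box and 13.6% the TATA motif.

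The 56 cells with Inmt shared several other genes. Gsn, the actin-severing protein gelsolin, was in all 56 at 7 to 808 UMIs, and Col1a1 and Col1a2, which the rule used, were in all 56 as well. Bgn, the proteoglycan biglycan, was also in all 56, at 3 to 77 UMIs, and Mfap4 was in 54. Dpep1 was in 53, Pdgfra in 52, Npnt, the basement membrane protein nephronectin, in 51, and Tcf21 in 42. Dcn was in 15. Of the contractile genes Acta2 was in 2 of the 56 cells and Myh11, smooth muscle myosin, and Cnn1, calponin, in 0, while Tagln, which binds smooth muscle actin, was in 27 at up to 7 UMIs, Myl9, a myosin light chain, in 12 and Mustn1 in 12. Of the 17 cells without Inmt, 13 were from null PNX, 3 from null sham and 1 from control PNX. Their classes below were formed after their values had been seen.

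**Figure D3:**
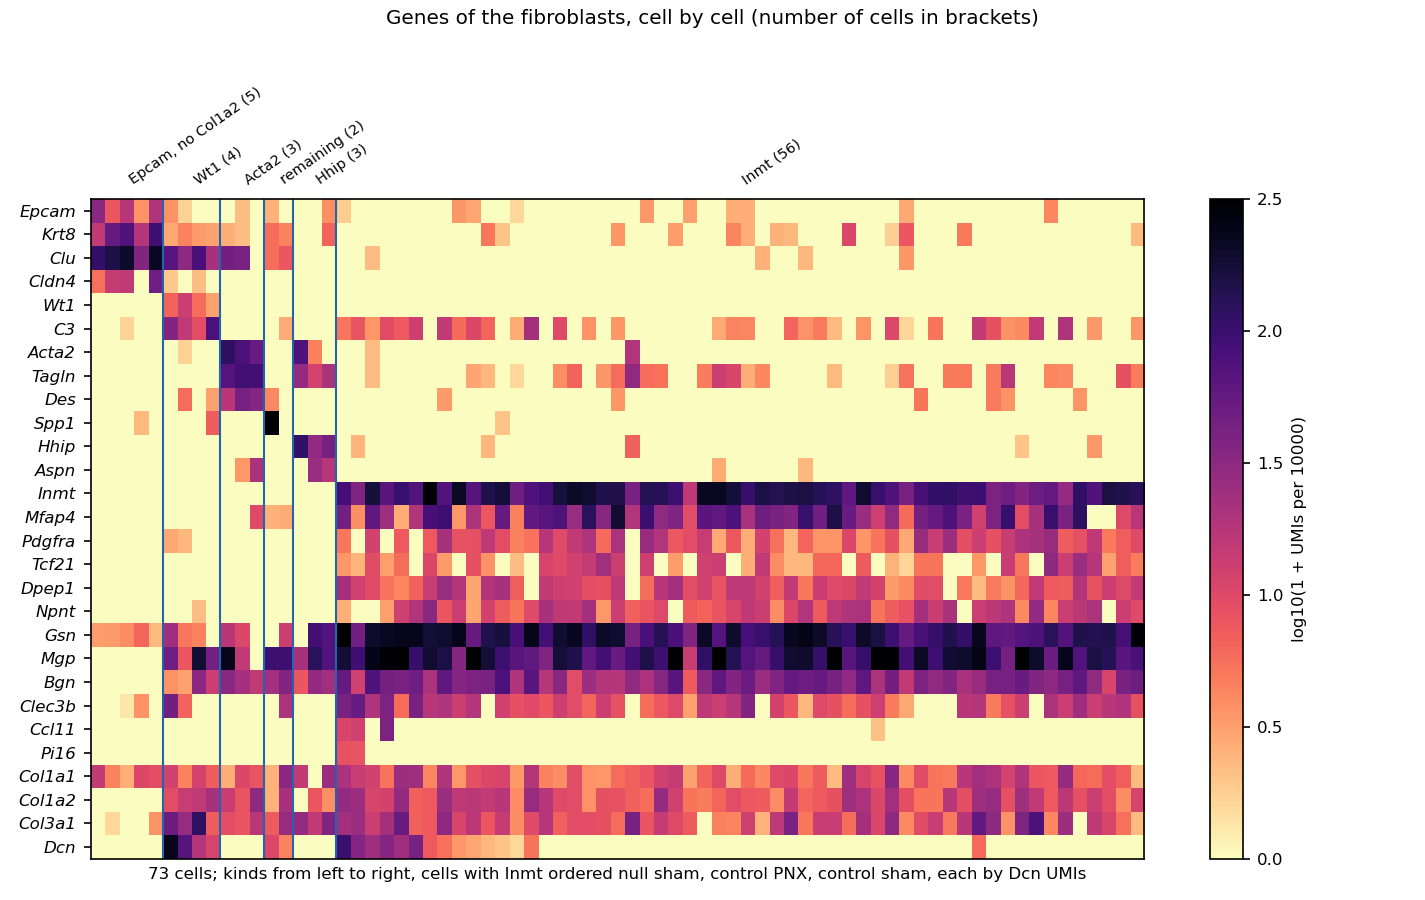
Each column is 1 of the 73 fibroblasts and each row 1 gene, coloured by log10(1 + UMIs per 10000); blue lines part the cells by Epcam without Col1a2, Wt1, Acta2, the remaining cells, Hhip and Inmt. The 56 cells with Inmt share Mfap4, Pdgfra, Dpep1 and Gsn. The cells to their left lack Mfap4, Pdgfra and Dpep1 for the most part, while many have some Gsn. Most of them, but not all, carry epithelial, mesothelial or contractile genes.

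In null PNX 5 of the 13 cells went against the label. They met the rule through 5 to 7 UMIs of Col1a1 each, had no Col1a2 and no Dcn, and at most 2 UMIs of Col3a1. They had 2, 12, 14, 14 and 51 UMIs of Epcam, and 6 to 217 of Krt8, a keratin of simple and stressed epithelium. Clu, a secreted chaperone, had 26 to 612 UMIs and Sfn, an epithelial 14-3-3 protein, 1 to 104. Bgn, Mgp, Sod3, Serping1 and Vim, an intermediate filament of mesenchymal cells, were at 0 in all 5. These are cells with epithelial genes and Col1a1, and the fibroblast name does not hold for them. Outside the fibroblasts, cells with Epcam and at most 1 UMI of Msln and Upk3b had a Col1a1 UMI in 52 of 1958 null PNX cells (2.66%, exact interval 1.99–3.47), 6 of 1895 null sham cells, 1 of 1129 control PNX cells and 3 of 934 control sham cells. In null PNX leukocytes, which do not make collagen, it was in 3 of 253 (1.19%, 0.245–3.43), an interval that overlaps, at a median of 4735 UMIs against 10789 in the null PNX cells with Epcam. The 52 null PNX cells with Epcam and Col1a1 held 92 UMIs of it. The null PNX cells with Epcam also had 75 UMIs of Col3a1 in 71 cells and 49 of Dcn in 49 cells. In null sham the cells with Epcam had 51 UMIs of Dcn in 48 cells. Whether UMIs of a rule gene in these cells came from the cell or from background was not tested.

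Another 4 null PNX cells carried Wt1, a transcription factor of the mesothelium, the lining of the lung surface, with 1, 4, 6 and 18 UMIs. Wt1 was at 0 in the other 69 fibroblasts. These 4 cells held 368 of the 376 Dcn UMIs of the null PNX fibroblasts, with 5, 15, 97 and 251 UMIs, while mesothelial cells of the library held 794 more. Col3a1 was at 3 to 100 UMIs. C3, the central complement protein, had 7 to 39 UMIs in them, and Saa3, an acute-phase protein, had 161 UMIs in 1 of them and 18 in another. Enpp2, the enzyme that makes lysophosphatidic acid, had 1 to 49 UMIs. The cell with 18 Wt1 UMIs also had 16 UMIs of Ccnb1 and 17 of Cdc20, genes of mitosis, and it held all of the Ccnb1 found in the fibroblasts. Null PNX had 42 mesothelial cells by 2 or more UMIs of Msln and Upk3b, against 10 in null sham, 1 in control PNX and 0 in control sham. The limit of 1 UMI of these genes decides whether a Wt1-bearing cell counts as a fibroblast here. Mesothelial cells expressed the rule genes themselves, with 2522 CPM of Dcn and 1673 of Col3a1.

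The last 4 null PNX cells were of 3 sorts. Of these, 2 had contractile genes, with 75 and 65 UMIs of Acta2, 43 and 75 of Tagln, 37 and 57 of Mustn1 and 10 and 35 of Des, the muscle intermediate filament. Another cell had 18 UMIs of Col1a1, 55 of Mgp, 21 of Bgn, 16 of Sod3, 11 of Clec3b and 12 of Igfbp6, without Inmt, Pdgfra or Acta2. The last had 426 UMIs of Spp1, the matricellular protein osteopontin, 116 of Serpine2, a protease inhibitor, 59 of Timp1, an inhibitor of metalloproteinases, 24 of Tnc, tenascin C, and 11 of Il11, a cytokine of fibrosis. It held 98.8% of the Spp1 and 100% of the Il11 of all fibroblasts, so the levels of these genes in the fibroblasts rest on 1 cell. Without the 5 cells with epithelial genes and the 4 with Wt1, null PNX had 4 cells left, 2 of them the contractile ones, and none with Inmt.

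The 3 null sham cells without Inmt carried Hhip, the hedgehog-binding protein of the myofibroblasts around alveolar ducts, at 16, 8 and 15 UMIs. Hhip was at 1 UMI or 0 in the other 70 fibroblasts. Aspn, a proteoglycan of the same cells, was at 0, 7 and 6 UMIs, and Acta2 at 11, 1 and 0. Rgs2, a regulator of G protein signalling, had 6, 8 and 18 UMIs, and Kcnj8, a potassium channel subunit, 3, 1 and 12. The control PNX cell without Inmt had Acta2 at 29 UMIs, Tagln at 49, Cnn1 at 23, Aspn at 11 and Postn, the matricellular protein periostin, at 42. That cell held 93.3% of the Postn of all fibroblasts, so the 1406 CPM of Postn in control PNX come from 1 cell. Summed over the fibroblasts Acta2 had 1062 CPM in null PNX, 60.0 in null sham, 971 in control PNX and 0 in control sham, and it was seen in 8 cells. Of the pericyte markers 8 of 9 measured were at least 4-fold higher in the fibroblasts (10.1% of all genes), with Kcnj8 at 12 UMIs in 1 Hhip cell, and Pdgfrb, the PDGF receptor of pericytes, was in 8 cells at 23.7 CPM.

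The 44 null sham cells with Inmt allow the spread between cells to be described. Per 10000 UMIs, Inmt ran from 14.8 to 288 with a median of 113, and Gsn from 35.8 to 666 with a median of 143. Mfap4 varied more, from 1.63 to 184 with quartiles of 19.7 and 63.8. Serping1, the C1 inhibitor, was in all 44 cells, from 4.22 to 62.7. Fmo2, a lung flavin monooxygenase, was in 43, Limch1, an actomyosin regulator, in 42, and Itga8, the integrin chain that binds nephronectin, in 35. Dcn was in 14 of the 44.

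Cells rich in Dcn differed in named genes from the rest of the 44, a split made after the values were seen. There were 6 cells with 5 or more Dcn UMIs and 38 with fewer. Of 1914 genes with at least 20 UMIs in the 44 cells, 12 (0.627%) were at least 4-fold higher in the Dcn-rich cells and 10 (0.522%) at least 4-fold lower, with 3 counts in place of fewer. The higher genes include Dcn itself, on which the cells were split, and the lower ones H2-Aa and Cd74, of which 1 cell held 93.2% and 89.0% of the UMIs of the 38 cells. Igfbp4, which binds insulin-like growth factors, had 2338 CPM in the Dcn-rich cells and 269.6 in the others, a ratio of 8.67 (6.19–12.2), and was in all 6 Dcn-rich cells and 13 of the 38. Cygb, a cytoplasmic globin, had 905 and 109.7 CPM, and Igfbp6 2187 and 489. Ccl11, the eosinophil chemoattractant eotaxin, had 38 UMIs in 3 Dcn-rich cells and 1 in the 38 others. Pi16, a marker of adventitial fibroblasts, was found in 2 of the 73 fibroblasts, both of them Dcn-rich null sham cells. Clec3b, which binds plasminogen, had 3268 CPM in the Dcn-rich cells and 845 in the others.

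Lower in the Dcn-rich cells were Cdo1, cysteine dioxygenase, with 126 CPM in the Dcn-rich cells and 1325 in the others, G0s2, an inhibitor of triglyceride lipase, with 101 and 877, and Ces1d, a carboxylesterase, with 0 UMIs and 118. The chemokine Cxcl14 had 327 CPM in the Dcn-rich cells and 1385 in the others, a ratio of 0.236 (0.124–0.410), and Npnt had 327 and 950.5. Genes of both groups lay closer together, with Inmt at 9202 CPM in the Dcn-rich cells and 12100.2 in the others, and Tcf21 at 377 and 420.4. These 6 cells share 1 library and 1 of them held 59.6% of their Dcn.

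How cells divided between marker lists of the 2 main fibroblast types rested on single genes. All 25 alveolar markers and all 26 adventitial markers had a UMI in the fibroblasts, 19 of 23 and 20 of 24 measured ones were at least 4-fold higher than in all other cells (10.1% of all genes were), and their summed levels in null sham fibroblasts were 21066 and 22949.9 CPM. A cell leaned to a list when it had at least 2 times as many UMIs of it as of the other. By this measure 12 cells leaned to the alveolar list, 15 to the adventitial list, 45 lay between and 1 had too few UMIs, with 26 cells at 1.5 to 3 times. In null sham 8 leaned to the alveolar list, 7 to the adventitial list and 32 lay between. Gsn alone gave 4283 of the 6116 adventitial UMIs in null sham (70.0%) and was in all 56 cells with Inmt, and Inmt gave 3014 of the 5614 alveolar UMIs (53.7%). Without Gsn, 49 cells leaned to the alveolar list and 10 to the adventitial list. Without Inmt these were 3 and 31 cells, and without both 30 and 12. Single markers also differed in reach within both lists. The alveolar Col13a1 was in 42 cells, and the adventitial Col14a1 in 9, Pi16 in 2 and Lum in 2. The other way round, of the 44 null sham cells with Inmt the adventitial Dpep1 was in 41 and Ogn in 40. In the same cells the alveolar Fgf10 was in 9 and Slc27a6 in 2. The cells were left without either name.

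Matrix genes made up the broadest group. Of the 15 listed collagens 13 of 13 measured were at least 4-fold higher in the fibroblasts (10.1% of all genes), with a median log2 ratio of 6.16, and 3 of them were used to choose the cells. Within null sham alone 11 of 11 were higher, where 9.16% of all genes were. The list summed to 4890 CPM in the fibroblasts and 3364 in mesothelial cells, which thus carried it as well. Col13a1, a membrane collagen that marks alveolar fibroblasts, had 196 CPM in the fibroblasts against 0.205 in all other cells and was in 42 cells, whereas Col14a1, which marks adventitial ones, had 21.5 CPM in the fibroblasts against 0.521 in all other cells and was in 9. Of the elastic fibre genes 17 of 18 were higher (median 6.55). Eln, tropoelastin, had 75.3 CPM in null PNX, 300.2 in null sham, 2845 in control PNX and 170.3 in control sham. The control PNX value rests on 5 cells, in which the elastic fibre genes together ran from 57.1 to 265 per 10000 UMIs of a cell. Ltbp4, which ties latent TGF-β to elastic fibres, had 592 CPM in the fibroblasts against 3.46 in all other cells, and Loxl1, a crosslinker of elastin, had 362 CPM in the fibroblasts against 2.34 in all other cells. Of the proteoglycans and matrix glycoproteins 25 of 25 were higher (median 6.45), with Bgn at 188 times and Ogn, osteoglycin, at 386 times the other cells. Lum, lumican, a common marker of adventitial fibroblasts, was in 2 cells. In collagen processing and matrix turnover 17 of 25 were higher, among them Timp3, a matrix-bound inhibitor of metalloproteinases, at 1154 CPM. That list summed to 9087 CPM in the fibroblasts and 5365 in mesothelial cells. Basement membrane genes were divided, with 10 of 18 higher, and Lamb1, a laminin chain, had 116 CPM in the fibroblasts against 0.978 in all other cells while Col4a1, a type IV collagen chain, had 282 CPM in the fibroblasts against 137 in all other cells.

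Among secreted ligands 20 of 36 measured were at least 4-fold higher in the fibroblasts (10.1% of all genes), with a median log2 ratio of 2.58. Fgf7, a growth factor for AT2 cells, was in 40 cells with 7.53 CPM in null PNX, 218 in null sham, 234 in control PNX and 227 in control sham. Figf, the lymphatic growth factor VEGF-D, was in 47 cells with 7.53 CPM in null PNX, 398 in null sham, 502 in control PNX and 1192 in control sham. Both were in the cells with Inmt for the most part, and 36 of the 56 had Fgf7. Wnt2 was in 19 cells, all with Inmt, with 0 CPM in null PNX, 93.8 in null sham, 0 in control PNX and 114 in control sham. In control PNX 3 counts would be 100.4 CPM, so its 0 cannot be set below null sham, and control sham had 4 UMIs of Wnt2. Fgf10, the ligand of lung budding, was in 13 cells with 0 CPM in null PNX, 41.3 in null sham, 66.9 in control PNX and 56.8 in control sham, and Hgf, a growth factor for epithelium, in 4 cells with 0 CPM in null PNX, 11.3 in null sham, 0 in control PNX and 28.4 in control sham. With 4 UMIs of Hgf and 15 of Fgf10 in all, no order of libraries can be read for them. Angpt1, the vessel-stabilising angiopoietin, had 123 CPM in the fibroblasts against 0.253 in all other cells, and Igf1, insulin-like growth factor 1, had 81.8 CPM in the fibroblasts against 1.33 in all other cells. Bmp4, a BMP ligand, was not far above the other cells, with 121 CPM in the fibroblasts against 82.9 in all other cells and a ratio of 1.45 (1.10–1.89), whereas its relative Bmp5 had 99.1 CPM in the fibroblasts against 13.1 in all other cells. No UMI of Rspo3, Nrg1, Igf2 or Fgf18 was found, which at 3 counts allows up to 6.46 CPM in the 73 cells.

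**Figure D4:**
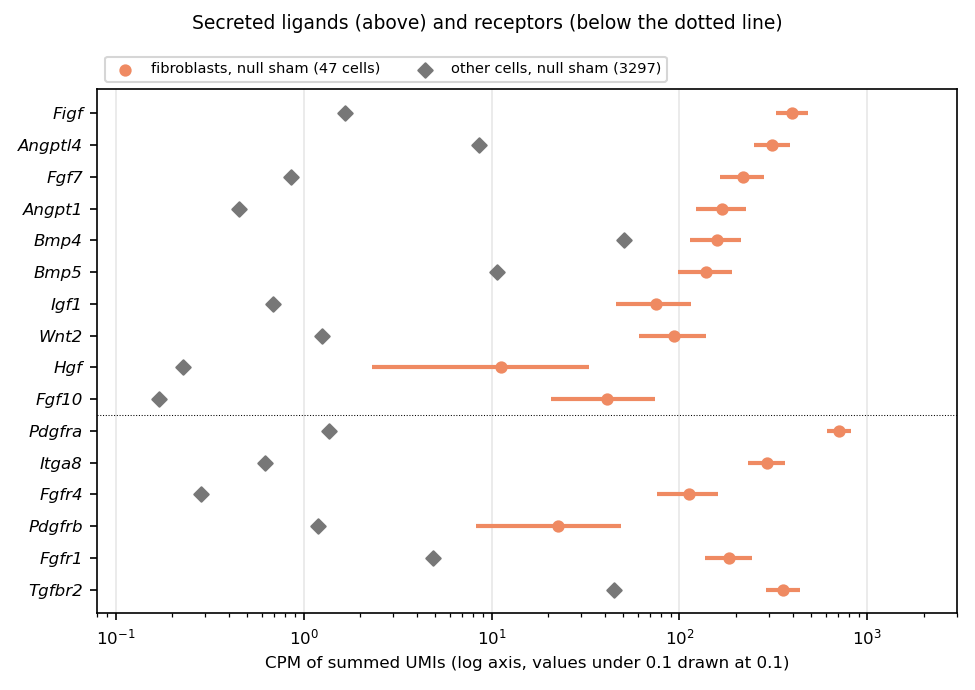
CPM of summed UMIs, on a log axis, of 10 secreted ligands and 6 receptors in the 47 null sham fibroblasts and the 3297 other null sham cells, with exact 95% Poisson intervals for the fibroblasts. Each interval lies above the level in other cells, from 11.3 CPM for Hgf to 705 for Pdgfra.

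Secreted antagonists were higher in 7 of 8 cases (median log2 6.19). Nbl1, a BMP antagonist, had 823 CPM in the fibroblasts against 17.8 in all other cells, and Sfrp1, a Wnt antagonist, 71.1 CPM in the fibroblasts against 0.458 in all other cells. Of the receptors 22 of 39 were at least 4-fold higher and 1 lower (10.1% and 1.83% of all genes). Summed, the receptor list had 3773 CPM in the fibroblasts but 11773 in endothelial cells, so it was not highest in the fibroblasts. Fgfr4 had 79.7 CPM in the fibroblasts against 0.110 in all other cells and Fgfr1 138 CPM in the fibroblasts against 3.42 in all other cells, both FGF receptors. Ednra, the endothelin receptor A, had 134 CPM in the fibroblasts against 0.316 in all other cells, and Tgfbr2, the type II TGF-β receptor, 289 CPM in the fibroblasts against 45.0 in all other cells. Lrp1, an endocytic receptor for proteases, had 357 CPM in the fibroblasts against 7.15 in all other cells. Transcription factors were higher in 21 of 31 cases (median 3.40), with a sum of 2569 CPM in the fibroblasts and 4091 in endothelial cells. Tbx2, a T-box factor of lung mesenchyme, had 177 CPM in the fibroblasts against 1.48 in all other cells, and Nfib, needed for lung maturation, had 422 CPM in the fibroblasts against 76.8 in all other cells. No UMI of Twist1, Twist2 or Pparg was found in any of the 73 cells.

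Genes of lipid and retinoid handling were mixed. Of 19 lipid genes 7 were at least 4-fold higher and 4 at least 4-fold lower, where 10.1% and 1.83% of all genes were, shares that serve for each list here. Apoe, the lipid carrier apolipoprotein E, had 5230.5 CPM in the fibroblasts against 417 in all other cells, and G0s2 had 493 CPM in the fibroblasts against 12.2 in all other cells. Scd1, a fatty acid desaturase abundant in AT2 cells, had 329 CPM in the fibroblasts against 2264 in all other cells, and Fabp5, a fatty acid carrier, had 273 CPM in the fibroblasts against 1599.9 in all other cells. Of the retinoid genes 7 of 12 were higher, with the retinaldehyde dehydrogenase Aldh1a1 at 762 CPM in the fibroblasts against 29.6 in all other cells. Complement and acute-phase genes were higher in 11 and lower in 2 of 15 cases, with Serping1 at 1968 CPM in the fibroblasts against 15.9 in all other cells. Mesothelial cells had more of this list, with a sum of 13772 CPM against 7750 in the fibroblasts. For the retinoid list these sums were 2509 and 2812 CPM. Of the chemokines and cytokines 9 of 20 were higher and 1 lower, and Cxcl14 had 52.7 CPM in null PNX, 1186 in null sham, 736 in control PNX and 1562 in control sham. Cxcl12, a chemokine for leukocytes, had 99.1 CPM in the fibroblasts against 3.61 in all other cells, below its 523 CPM in endothelial cells.

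By summed level, epithelial and mesothelial markers were highest in the null PNX fibroblasts, leukocyte markers in null sham and endothelial markers in control sham. Of 15 AT2 markers 0 were at least 4-fold higher and 13 at least 4-fold lower in the fibroblasts than in all other cells (1.83% of all genes were lower), and the rule itself limited Sftpc. The median share of Sftpc in the UMIs of a fibroblast was 0.524% in null PNX, 0.471% in null sham, 0.4996% in control PNX and 0.845% in control sham. In leukocytes of the same libraries, which lack the gene, it was 0.529%, 0.476%, 0.457% and 0.852% in the same order. The median Sftpc share of the fibroblasts was thus near that of cells that do not make it. Single cells lay higher, with 4 fibroblasts at 1% to under 6%. The highest share was 4.43% in null PNX and 2.32% in null sham. The summed level of 11 epithelial markers was 9307 CPM in null PNX fibroblasts, 675 in null sham, 167 in control PNX and 142 in control sham. The 14 mesothelial markers summed to 4834, 582, 736 and 426 CPM in the same order. This list shares the keratins Krt18 and Krt19 with the epithelial list and also holds C3. In null PNX these had 298, 151 and 108 UMIs, so the 2 sums are not separate there. The 11 leukocyte markers summed to 226, 413, 33.5 and 56.8 CPM, and the 14 endothelial markers to 188, 176, 66.9 and 369 CPM. Per 10000 UMIs of a cell, the leukocyte markers had a median of 0 in null sham, with 46.6 in the highest cell. In null PNX these values were 1.33 and 9.17, so the null sham sum was not typical of its cells. The endothelial markers had a median of 1.85 in control sham, with 10.6 in the highest cell, where 3 counts would be 85.2 CPM. Over all fibroblasts the leukocyte markers came to 308 CPM and 9059 in leukocytes, and the endothelial markers to 187 and 19684 CPM in fibroblasts and endothelial cells.

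The share of cells with a leading gene at equal depth differed between genes. With each cell thinned to 1500 UMIs, Inmt was seen in 77.5% of 71 fibroblasts and 1.15% of 781 leukocytes, against 76.7% and 4.96% before thinning. Leukocytes had a median of 3724.5 UMIs and fibroblasts 5365, and 2 fibroblasts and 45 leukocytes were too shallow. Mfap4 was in 70.4% of thinned fibroblasts and 0.512% of thinned leukocytes (unthinned 78.1% and 1.45%). Pdgfra was in 53.5% and 0% (unthinned 74.0% and 0.121%). Other leading genes were seen in fewer of the thinned fibroblasts, Cxcl14 in 47.9%, Tcf21 in 33.8%, Lox in 31.0% and Itga8 in 29.6%. Dcn was in 19.7% and 0.512% (unthinned 28.8% and 1.45%). The thinned null PNX cells had a median of 860 genes, against 848 in null sham, 882 in control PNX and 848 in control sham. The null PNX fibroblasts were the deepest before thinning, with 0 UMIs of Inmt in them.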

How the data were processed

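Single-cell 3′ RNA libraries (10x Genomics) were made from GFP+ cells sorted after protease digestion of the lung, per the labels' protocols. The authors deposited 1 table of raw UMI counts, 17117 genes by 10077 cells, with whole numbers and no normalization. The submitters' processing notes list Cell Ranger 2.1.0, Seurat 2.3.4 and mm10. The lowest UMI total of a cell was 2669 in null PNX, 1379 in null sham, 1171 in control PNX and 691 in control sham. No label describes how doublets were treated, and no doublet caller was run. Barcode endings gave the library, per the labels. The reporter transcripts are not analysed here, and a few genes that the rules name are not reported here.

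From these counts, fibroblasts were picked by the rule, with no other filter on cells. UMIs were summed over cells and scaled to CPM. Levels have exact Poisson and ratios exact conditional binomial 95% intervals (SciPy 1.17.1), and both were checked on simulated counts. A count under 3 in the other cells was set to 3 for ratios, and for lower calls one under 3 in the fibroblasts. Leukocytes had Ptprc, endothelial cells Pecam1 with at least 3 UMIs of Cdh5, Cldn5 and Egfl7, and both under 6% Sftpc and under 5 UMIs of the 4 rule genes. Named genes were the 4 rule genes, the 25 with the largest ratio (at least 100 UMIs, 20% of cells, at most 50% in 1 cell), the 4 most abundant of each gene list, and a set of 14 chosen genes; others named in the text were picked after their values were seen. Members, gene lists and markers were chosen with earlier results of these data known. Alternatives varied the cell rule, scaling, filters, fold and libraries.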

Additional observations from a re-analysis of the deposited data

How the results depend on the processing

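Limits first: with 1 library per group no difference has a replicate check, and depth set what could be seen of genes with few UMIs. The 4 planned comparisons between libraries were not run, since only null sham had 15 or more fibroblasts. No paired analysis was possible because each group was 1 library. With at least 10 UMIs of the rule genes there were 47 fibroblasts instead of 73, with 8 in null PNX, 30 in null sham and 5 in control sham. Null PNX had 4 without cells with an Epcam or Cdh5 UMI, and 4 without the epithelial and Wt1 cells, an alternative chosen after seeing the data.

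Cells leaning to the alveolar list were 3 with at least 10 UMIs, 19 at 1.5 times and 2 at 3 times, instead of 12; they were 49 without Gsn, 3 without Inmt and 30 without both, changes of the lists chosen after seeing the data. Cells leaning to the adventitial list were 9 without Epcam or Cdh5 UMIs and 9 without the epithelial and Wt1 cells, and 31 without Inmt, instead of 15.

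Genes at least 4-fold higher were 1392 to 1434 with each library left out in turn and 966 in null PNX alone; 792 were 8-fold and 3148 2-fold higher. Genes at least 4-fold lower were 142 to 324 with each library left out, the fewest without null sham, 403 after division by the median ratio, 73 in null PNX alone, 56 in control PNX alone and 56 in control sham alone; 50 were 8-fold and 959 2-fold lower.

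Of 1742 log2 ratios of 84 named genes under alternatives, 1075 lay within the main interval and 659 outside it. Another 8 lay outside it with the other sign, in genes with a main ratio of at least 4-fold either way. Any change of sign in genes with a smaller main ratio was counted among the 659. Alternatives in which the fibroblasts had no UMI of the gene were left out. All 25 leading genes stayed at least 4-fold higher in each alternative other than null PNX alone, where 20 did and 5 had no UMI. The log2 ratio of Spp1 turned to -2.99 without Epcam or Cdh5 cells, -5.11 in cells with Inmt (also chosen after seeing the data), -3.32 without its highest cell, -1.74 without null PNX (the range with each library left out reached 3.88, without null sham) and -1.19 in null sham alone. In null PNX alone it was -0.24 for G0s2, -0.38 for Aldh1a1 and -1.47 for Npnt.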

Other observations

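Clock and glucocorticoid-response genes were uneven between the libraries of the fibroblasts. The null PNX cells had no Inmt and for the most part carried epithelial genes or Wt1. Library and kind of cell therefore cannot be told apart for the null PNX values. Tsc22d3, a glucocorticoid-induced leucine zipper, had 7.53 CPM in null PNX, 499 in null sham, 301 in control PNX and 823 in control sham. Klf9, induced by glucocorticoids, had 136 CPM in null PNX, 570.4 in null sham, 469 in control PNX and 483 in control sham. Dbp, a clock output factor, had 0 CPM in null PNX, 371 in null sham, 33.5 in control PNX and 28.4 in control sham, and Nr1d1, a clock repressor, 30.1 CPM in null PNX, 263 in null sham, 201 in control PNX and 0 in control sham. Dbp was thus high in the null sham cells and at or near the level of 1 UMI in the other libraries. There 3 counts would be 22.6 CPM in null PNX, 100.4 in control PNX and 85.2 in control sham, so those libraries cannot be ordered. Of this list 3 of 17 genes were at least 4-fold higher in the fibroblasts than in all other cells, where 10.1% of all genes were, with a median log2 ratio of 1.52. Within null sham alone 8 of 17 were higher, where 9.16% of all genes were, with a median of 0.94.

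Of 20 immediate-early genes 2 were at least 4-fold higher in the fibroblasts, a share near the 10.1% of all genes, with a median log2 ratio of 1.27 against 0.10 for all genes. Of 15 heat shock genes 0 were (median 0.46). Fos, a component of AP-1, had 881 CPM in the fibroblasts against 287 in all other cells and 775 in leukocytes. Readouts of YAP and TGF-β were higher in 7 of 18 cases (10.1% of all genes, also for the lists that follow), with the matricellular proteins Cyr61 at 1029 CPM in the fibroblasts against 81.4 in all other cells and Ctgf at 389.8 CPM in the fibroblasts against 6.64 in all other cells. Of 19 interferon-stimulated genes 8 were higher, with the antiviral membrane protein Ifitm3 at 1970.3 CPM in the fibroblasts against 135 in all other cells. Summed, these 19 genes had 9117 CPM in the fibroblasts, 12620 in leukocytes and 23758 in endothelial cells. Contractile genes were higher in 14 of 18 cases, although Acta2 was in 8 cells and 1 cell held 40.3% of it. Of 14 measured fibrosis-associated genes 11 were higher, among them Spp1, of which 1 cell held 98.8%. Of the same list Il11 was in 1 null PNX cell only, and the 42 Postn UMIs of control PNX were in 1 cell. The list summed to 5587 CPM in null PNX, 600 in null sham, 3882 in control PNX and 284 in control sham, so the count does not describe all fibroblasts alike. Cthrc1, a marker of fibrotic fibroblasts, had no UMI in the 73 cells and 1422 in the other cells. Cell cycle genes were higher in 1 of 20 cases, the Ccnb1 of 1 null PNX cell. Cdc42 had 549.7 CPM in null PNX, 345 in null sham, 268 in control PNX and 284 in control sham, with 334 in all other cells. The null PNX value includes the cells with Wt1 and with epithelial genes, which had up to 19 and 13 UMIs of it. The control PNX and control sham values rest on 5 and 8 cells with at most 4 and 3 UMIs each. No order of libraries can be read from these values.

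A null sham cell with 16735 UMIs and 77 of Inmt had 354 UMIs of H2-Aa and 664 of Cd74, genes of antigen presentation, which were 75.3% and 55.0% of those of all fibroblasts. It was the deepest cell with Inmt, and whether it is a pair of cells was not tested. Xist had no UMI in any of the 73 cells, while the Y-linked Eif2s3y was in 22 and Ddx3y in 21 of them.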
